A study of Drosophila melanogaster with 12 samples.

Results

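Among 16637 transcripts measured in whole Drosophila melanogaster, 228 were set apart because their levels varied most among the males of 6 experimentally evolved populations. They were chosen from the values themselves. A transcript was taken when the standard deviation (SD) of its log2 expression value over the 6 male arrays was at least 1.3, its median over the 6 males and its median over the 6 females were both at least 8, and these medians differed by less than 2. On this scale 1 unit is a 2-fold difference in signal. The limits on the medians were met by 9296 transcripts, 229 of these (2.46%) reached the male SD, and 1 of the 229 was left out. The male spread is therefore given as a description with no test. The spread among females and the order of the populations in females did not enter the choice, although the female median did.

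The populations had been kept for 65 generations, 3 of them under monogamy and 3 under polygamy, on standard cornmeal medium, and all carry the genetic background labelled IV. Each population gave 1 array of whole virgin males and 1 of whole virgin females, aged 4 days. The 12 single-colour NimbleGen arrays thus form 4 groups of 3, which are monogamy males, polygamy males, monogamy females and polygamy females. The male and female arrays of a regime that bear the same number carry 1 subject label and are treated as 1 population, written here as monogamy 1 to 3 and polygamy 1 to 3. How many flies made up a sample is not stated in the sources used here, and each population was measured with 1 array per sex, so that a difference between populations includes the error of single arrays.

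Under monogamy a fly has a single mate, and competition among males for mates and choice among them are removed, while polygamy retains them. Replicate populations kept under the same regime are bred apart, so their allele frequencies drift separately from each other, and the spread among replicates is the yardstick against which a difference between regimes is read. RNA of a whole fly pools gut, fat body, muscle, nervous system and gonads, and the gonads and accessory glands differ most between the sexes. In such a sample fewer cells of a type and less RNA per cell cannot be told apart. The deposited identifiers are FlyBase transcript numbers, and a RefSeq gene table paired none of the 228 with a gene symbol (0 of 228, and 44 of all 16637), so that no function is given for any of them. Sex and tissue could not be checked against named marker genes for the same reason.

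Arrays that stood apart bear on what follows. Monogamy male 1 had a mean correlation of 0.925 with the other males over all transcripts, against 0.958 to 0.969 for the other 5 males. Polygamy female 3 had a mean correlation of 0.733 with the other females, against 0.894 to 0.924, and its lower quartile over all transcripts was 7.9994, against 7.08 to 7.28 in the other females. Several counts and shares that include these arrays are also given without them, and others were computed with all arrays only. Single transcripts are described by the values of the arrays.

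The male SD of the 228 had a median of 1.53 and a largest value of 2.87, and the median over the 9296 was 0.34. Just inside the limit were FBtr0072848 (male SD 1.30004) and FBtr0072523 (1.30044), and just outside it were FBtr0077173 (1.29807) and FBtr0077976 (1.29694). The male medians of the 228 ranged from 8.02 to 13.24, and the female medians from 8.03 to 13.15. The male median was the higher in 108 of the 228, and the median of the male minus female differences was -0.07, within a choice that had set the limit on this difference.

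In males most of the 228 varied together. The 6 values of each transcript were put in order and split at the largest gap between neighbours. In 148 transcripts monogamy 3, polygamy 1 and polygamy 3 lay above the gap and monogamy 1, monogamy 2 and polygamy 2 below it. In 35 monogamy 1 alone lay below, and in 22 monogamy 1 and polygamy 2 lay below. In these 205 transcripts, called the main set, the arrays below the gap were thus drawn from the same 3 and always included monogamy 1. The lowest male was monogamy 1 in 179 of them and polygamy 2 in 26, and the order within the low and the high arrays varied from transcript to transcript. The other 23 showed 12 other patterns. In the 148 and the 22 transcripts the high and the low arrays each came from both regimes. In the 35 the high arrays did, and the only low array was monogamy 1. Over the 9296 transcripts, 8.12% showed the first of these patterns and 12.3% showed it upside down, with monogamy 1, monogamy 2 and polygamy 2 above, which 1 of the 228 did (FBtr0082504).

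The mean of the main set was 7.28 in monogamy male 1, 8.77 in monogamy male 2 and 10.78 in monogamy male 3, against 10.83 in polygamy male 1, 8.23 in polygamy male 2 and 10.62 in polygamy male 3. The 3 high arrays lay close together, and the 3 low arrays were spread more widely. Relative to the male median of each transcript, the middle value over the main set was -2.42 in monogamy male 1, -0.96 in monogamy male 2 and 1.07 in monogamy male 3, against 1.10, -1.45 and 0.91 in polygamy males 1, 2 and 3. All 205 lay above their male median in monogamy male 3, and none of the 205 did in monogamy male 1.

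**Figure D1:**
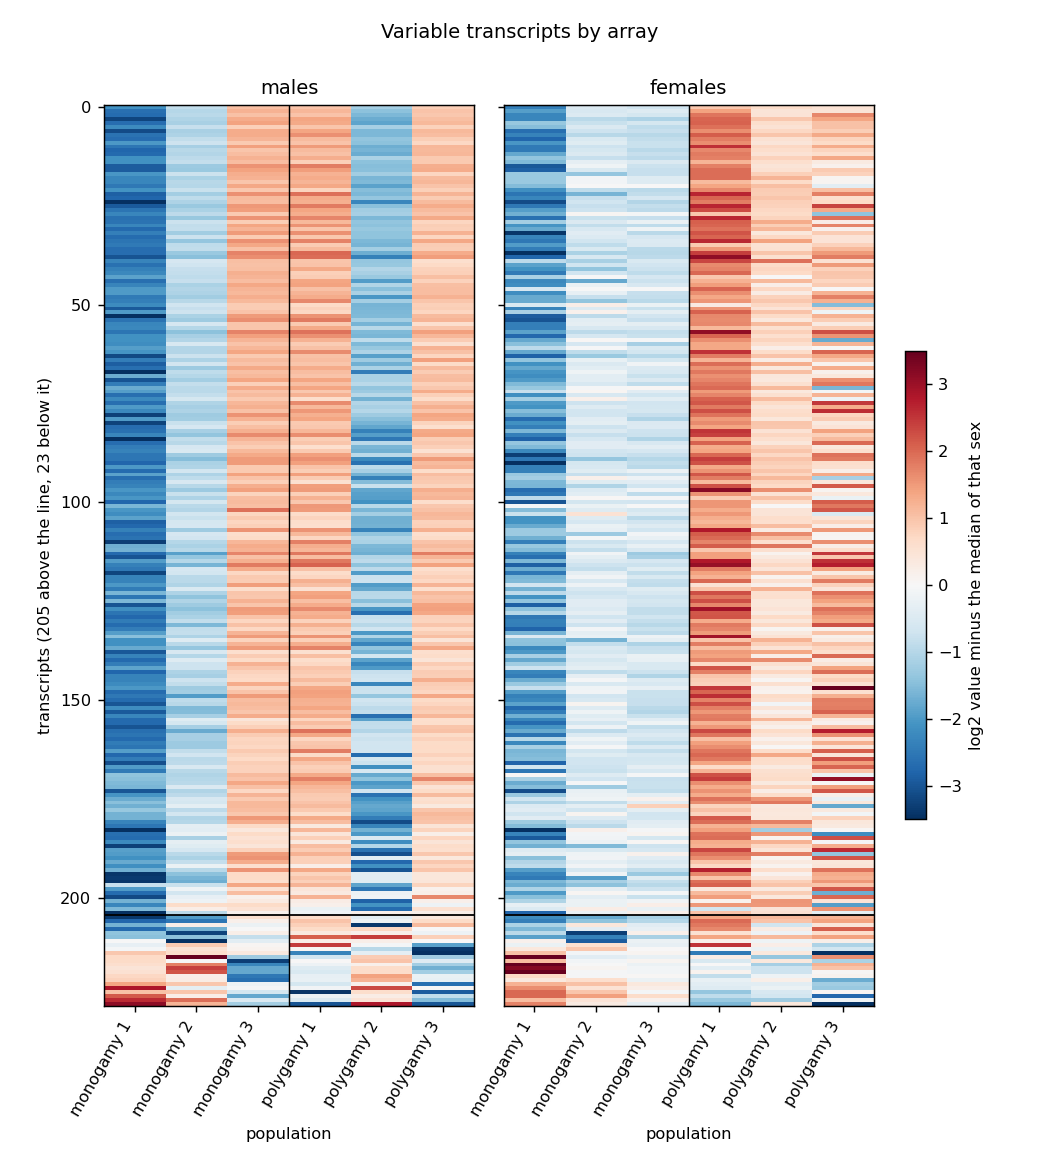
Log2 values of the 228 transcripts (rows) in the 6 male arrays (left panel) and the 6 female arrays (right panel), with monogamy populations left of the polygamy populations in each; colour gives the value minus the transcript's median over that sex. Above the horizontal line lie the 205 transcripts of the main set. Their mean was low in monogamy males 1 and 2 and polygamy male 2 and high in the other 3 males. In females their mean was low in the monogamy arrays, lowest in monogamy 1, and high in the polygamy arrays. Single transcripts of the set departed from these means. The 23 other transcripts lie below the line.

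FBtr0089144 had the largest male SD in the main set with the first pattern. It stood at 6.30, 7.87 and 10.95 in monogamy males 1, 2 and 3 and at 11.28, 6.95 and 10.79 in polygamy males 1, 2 and 3. The low and the high arrays were 2.92 or more apart, and the regimes overlapped. FBtr0073907 stood at 5.34, 6.16 and 9.77 in monogamy males and at 9.91, 6.37 and 9.87 in polygamy males, so that the same 3 arrays were high. FBtr0076855 was the extreme case of the second pattern. It stood at 4.35 in monogamy male 1, at 8.97 and 10.05 in monogamy males 2 and 3, and at 9.77, 10.09 and 10.10 in the polygamy males. FBtr0079566, of the third pattern, stood at 8.26, 10.35 and 11.78 in monogamy males and at 11.67, 8.31 and 11.81 in polygamy males, with monogamy 1 and polygamy 2 low by at least 2.04.

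Over the 25878 pairs of the 228 transcripts, 78.7% had a Pearson r of at least 0.8 across the 6 males and 3.23% had an r of -0.8 or below, with a median r of 0.95. Over the pairs of the 9296 transcripts the shares were 17.8% and 15.4%. The first principal component held 89.6% of the variance of the 228 in males and 76.8% of that of all transcripts, so that such variation was not limited to them. Outside the 228, 2378 transcripts (14.5% of 16408) followed the mean of the main set in males with an r of at least 0.9, and 3368 (20.5%) ran against it with an r of -0.9 or below. Their median male SD was 0.80 and 0.44, below the limit. These r values rest on 6 arrays that all transcripts share and are descriptions. Without monogamy male 1, the share of pairs with an r of at least 0.8 was 75.4%.

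Among the properties of whole arrays, the lower quartile in males moved with the main set, and the SD over all transcripts moved against it. The lower quartile over all transcripts was 7.42, 7.60 and 7.68 in monogamy males 1, 2 and 3, and 7.70, 7.56 and 7.66 in polygamy males 1, 2 and 3, which is the order of the means of the main set. The median over all transcripts did not follow that order in males, nor did the lower quartile in females, which was 7.17, 7.15 and 7.08 under monogamy and 7.17, 7.28 and 7.9994 under polygamy. The SD over all transcripts was 2.8311, 2.794 and 2.7774 in monogamy males 1, 2 and 3, and 2.7618, 2.8069 and 2.7795 in polygamy males 1, 2 and 3. This is the reverse of the order of the means of the main set. The upper quartile in males ran in that reverse order too, apart from polygamy male 1 and monogamy male 3. In females the SD was 2.8457, 2.8541 and 2.848 under monogamy and 2.8243, 2.8334 and 2.3706 under polygamy. The part of these properties in the male pattern was not tested. After quantile normalization within each sex, which makes these quartiles and SDs equal, 193 of the 228 still had a male SD of at least 1.3 and met the limits on the medians. Monogamy male 1 carried much of the spread. Without it 107 of the 228 kept a male SD of at least 1.3, while 208 to 224 kept it without any single one of the other 5 males.

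The same transcripts varied among females. The female SD of the 228 ran from 0.50 to 2.92 with a median of 1.38, against a median of 0.55 over the 9296 transcripts. It reached 1.3 in 144 of the 228 (63.2%), against 7.7% of the 9296. Without polygamy female 3 the contrast was wider, with 149 of the 228 (65.4%) against 2.31% of the 9296, and the 149 made up 69.3% of the transcripts within the limits on the medians that reached it. With polygamy female 3 included, the 144 made up 20.1% of them. Monogamy female 1 and polygamy female 1 carried part of this spread. Without monogamy female 1 the share was 27.2%, against 7.2% of the 9296, and without polygamy female 1 it was 45.2%, against 8.73%. In 56 of the 228 the female SD exceeded the male SD, a count that the choice for a large male SD holds down. Over the 9296 the median SD was 0.55 in females and 0.34 in males.

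**Figure D2:**
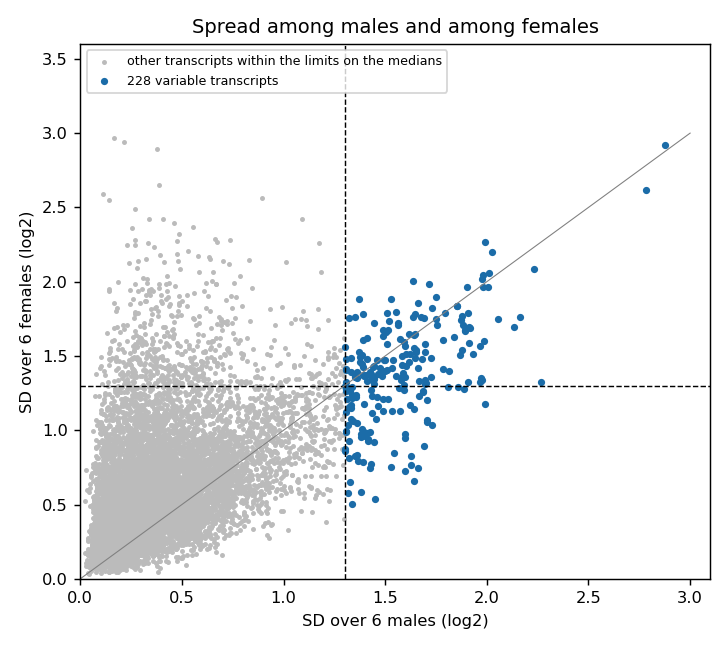
SD over the 6 females against SD over the 6 males, in log2 units, for the 228 variable transcripts (blue) and for the other transcripts that met the limits on the medians (grey); dashed lines mark 1.3 and the thin line marks equal spread. Of the 228, 144 lie above the horizontal dashed line, while 7.7% of the 9296 transcripts within the limits on the medians do.

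The ends of the female range differed in kind. FBtr0082093 had the largest female SD (2.92). It stood at 11.19, 10.06 and 10.23 in monogamy females and at 7.67, 10.51 and 3.41 in polygamy females, with polygamy female 3 far below the rest. FBtr0082504 (female SD 2.62) was lowest in the same array, at 3.98, with the other 5 females between 8.15 and 11.45. FBtr0076344, FBtr0089090 and FBtr0089144 followed, with female SDs of 2.27, 2.20 and 2.09 and the lowest value of each in monogamy female 1. At the other end FBtr0072585 had a female SD of 0.50 and values of 9.34, 8.60 and 8.69 in monogamy females and 7.78, 8.47 and 8.76 in polygamy females. In males it stood at 10.04, 9.55 and 6.81 under monogamy and at 9.04, 10.72 and 9.09 under polygamy, so that the low value of monogamy male 3 had no counterpart in the female of that population. FBtr0077975, FBtr0071048, FBtr0076957 and FBtr0076955 were the next smallest, with female SDs of 0.54 to 0.65.

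Transcripts that varied together in males also did so in females. The 20362 pairs with an r of at least 0.8 in males had a median r of 0.91 in females, and 76.6% of them reached 0.8 there. The 835 pairs that opposed each other in males, with an r of -0.8 or below, had a median r of -0.80 in females. None of the 20362 had an r of -0.8 or below in females, and none of the 835 reached 0.8. The 4681 remaining pairs had a median r of -0.05. Without polygamy female 3 the 3 medians were 0.96, -0.90 and -0.20. Over all pairs of the 228, 63.1% had an r of at least 0.8 in females, against 19.7% of the pairs of the 9296, and without polygamy female 3 it was 78.0%. In females the first principal component held 84.3% of the variance of the 228 and 71.5% of that of all transcripts. Outside the 228, transcripts with an r of at least 0.9 to the main set in males had a median r of 0.76 with it in females. Those at -0.9 or below had a median of -0.73, so that such agreement between the sexes was not limited to the 228.

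The order of the populations, however, was not the same in the sexes. In females the mean of the main set was 8.03, 9.36 and 9.27 under monogamy (populations 1, 2 and 3), against 11.58, 10.54 and 10.79 under polygamy (populations 1, 2 and 3). All 3 monogamy females thus lay below all 3 polygamy females, which the males did not show. Monogamy 1 was low and polygamy 1 was high in both sexes. Monogamy 3 was among the high arrays in males and among the low arrays in females, and polygamy 2 was low in males and high in females. In females 203 of the 205 lay above their female median in polygamy 2, and 9 of the 205 did in monogamy 3.

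**Figure D3:**
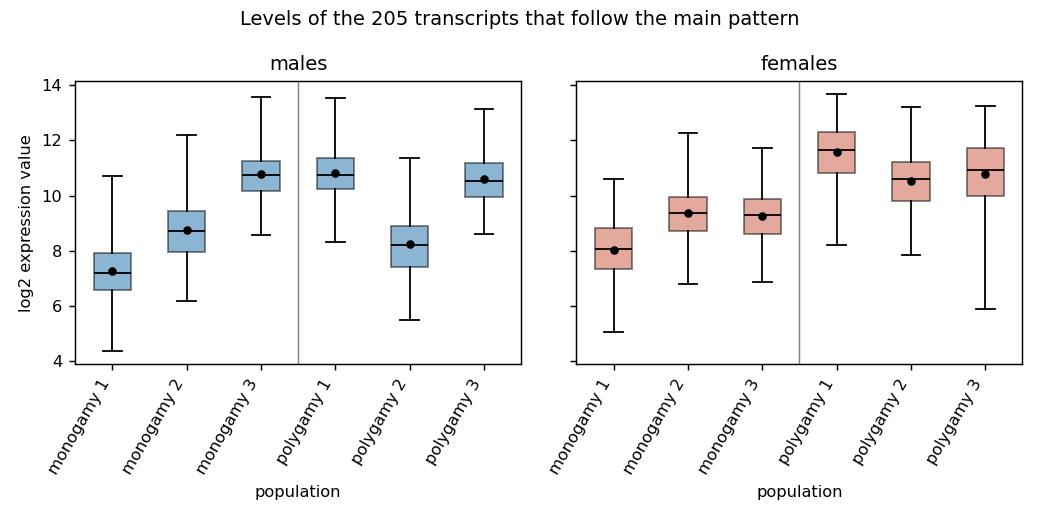
Log2 values of the 205 transcripts of the main set in each male array (left) and each female array (right), monogamy left of polygamy; boxes give the quartiles and median, whiskers the lowest and highest transcript, and black points the mean. The means of monogamy 1, 2 and 3 are 7.28, 8.77 and 10.78 in males and 8.03, 9.36 and 9.27 in females, and those of polygamy 1, 2 and 3 are 10.83, 8.23 and 10.62 in males and 11.58, 10.54 and 10.79 in females.

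Counted by transcript, the lowest male was monogamy 1 in 183 of the 228 and the lowest female was monogamy 1 in 192, against 22.6% of the 9296 transcripts for females. Both were monogamy 1 in 173. The highest female was polygamy 1 in 168 of the 228, against 17.2% of the 9296. The highest male was polygamy 1 in 112, monogamy 3 in 72 and polygamy 3 in 27. The lowest male and the lowest female came from 1 population in 180 of the 228, against 26.5% of the 9296, and the highest male and the highest female did so in 94 (41.2%), against 34.0%. Without polygamy female 3 the lowest female was monogamy 1 in 197 (86.4%), against 33.1%, and the highest was polygamy 1 in 204 (89.5%), against 27.7%.

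Each transcript was then followed across the 6 populations, male value against female value. The Pearson r had a median of 0.60 over the 228 and of 0.28 over the 9296, it was above 0 in 223 of the 228, and it reached 0.8 in 20 of the 228 (8.77%), against 3.7% of the 9296. The populations whose position differed between the sexes lowered it. Without monogamy 3 the median was 0.83, against 0.40 over the 9296, and 123 of the 228 (53.9%) reached 0.8, against 17.3% of the 9296. Without polygamy 2 the median was 0.76, against 0.45, and 73 (32.0%) reached 0.8, against 10.7%. Without monogamy 1 the median dropped to 0.25, against -0.0057, and 8 of the 228 (3.51%) reached 0.8, against 1.91%. The relation between the sexes thus rested largely on monogamy 1. In each of these cases the median of the 9296 moved in the same direction, so that such shifts were not limited to the 228. Without polygamy 3 the median was 0.57 and 19 (8.33%) reached it, against 10.2%, so that the share was then below that of the 9296, whose median was 0.41. Each r rests on 6 populations, or on 5, and is given with no test.

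**Figure D4:**
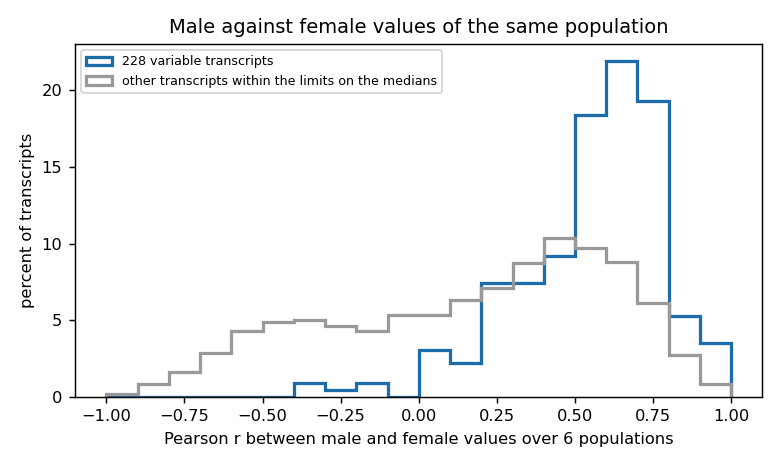
Distribution of the Pearson r between the male and the female value of a transcript over the 6 populations, as percent of transcripts, for the 228 variable transcripts (blue) and for the other transcripts that met the limits on the medians (grey). The 228 are shifted to the right, with a median of 0.60, and 20 of them reach 0.8.

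The regimes were compared to ask how much of this spread lies between monogamy and polygamy. In females all 3 monogamy values lay below all 3 polygamy values in 185 of the 228 transcripts, against 15.0% of all transcripts and 14.6% of the 9296, and above them in 5, against 23.2% and 30.6%. Without polygamy female 3 they lay below in 204 (89.5%), against 25.8% of the 9296, and above in 8, against 39.2%. The largest gap between neighbouring female values, however, mostly did not divide the regimes. With all females included, it left monogamy female 1 alone below in 96 of the 228, and the 3 polygamy females above in 40. These splits were not counted over the 9296. The median difference, monogamy minus polygamy, was -2.12 over the 228 and 0.06 over all transcripts, and it was negative in 212 of the 228. Over the 228 it was -2.18 without polygamy female 3. With values centred on the mean of their regime and sex, the female SD reached 1.3 in 9 of the 228 (3.95%), against 2.43% of the 9296, and in 6 (2.63%) without polygamy female 3, against 0.0645%. Only 1 of the 228 passed the test across all transcripts (limma, 1 fit of the 4 groups, Benjamini-Hochberg adjusted p under 0.05), against 0.0601% of all transcripts. At an unadjusted p under 0.05 there were 119, of which 117 were lower under monogamy, against 29.0% of all transcripts. Most of the 228 moved together over the same female arrays (median r of pairs 0.88), so that the transcripts counted here are not separate regime differences.

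These p-values carry a limit that comes from the choice of transcripts. The fit takes its residual spread from both sexes, and the 228 were chosen for a large spread among males, so that their error in females includes values the choice had used. With the females fitted alone, 185 of the 228 were at an unadjusted p under 0.05, of which 180 were lower under monogamy, against 21.6% of all transcripts, and none of all transcripts passed the adjusted threshold (limma). In the fit of both sexes the count also moved with single arrays, from 31 to 159 with 1 array left out. It was 31 without monogamy female 1, against 12.2% of all transcripts, 42 without polygamy female 1, against 26.5%, and 78 without polygamy female 3, against 24.6%. With monogamy female 1 left out the share of the 228 was thus near that of all transcripts, and with polygamy female 1 left out it was below it. The count rose to 154 without monogamy male 1, against 30.3%, and to 159 without monogamy male 3, against 29.8%. Without polygamy male 2 it was 148, against 28.7%, and it was 100 to 112 without any single one of the remaining males.

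FBtr0112533 was the transcript that passed. It stood at 8.72, 8.25 and 9.50 in monogamy females and at 12.00, 11.75 and 12.03 in polygamy females, and at 8.67, 8.68 and 9.31 in monogamy males and at 12.21, 12.55 and 10.95 in polygamy males. The regimes did not overlap in either sex. This held with monogamy lower for 2 of the 228, the other being FBtr0070831, against 0.835% of all transcripts and 0.99% of the 9296. The share among the 228 was thus near both. It averaged 8.82 ± 0.63 in the 3 monogamy females and 11.93 ± 0.15 in the 3 polygamy females (mean ± SD), a difference of -3.10 (SE 0.44, adjusted p = 0.0426, limma). The population arrays are the replicates here, so that these p-values measure the spread between populations and between single arrays. The call was lost after quantile normalization over all arrays (adjusted p = 0.0751, limma) or within each sex (adjusted p = 0.0855), with the females fitted alone (adjusted p = 0.186), and without 9 of the 12 arrays taken singly, at differences between -2.82 and -3.44 in all of these. In males the difference was -3.02 (SE 0.44), which did not pass (adjusted p = 0.546, limma).

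Other large differences in females, with a wider spread between populations, did not pass. FBtr0076344 averaged 8.37 ± 1.22 in monogamy females and 11.98 ± 1.26 in polygamy females, a difference of -3.61 (SE 1.22, adjusted p = 0.125, limma, n = 3 each). FBtr0089090 averaged 7.89 in monogamy females and 11.42 in polygamy females, a difference of -3.53 (SE 1.23, adjusted p = 0.126, limma). On the other side FBtr0082093 had a difference of 3.30 and FBtr0082504 one of 2.88, and polygamy female 3 held the lowest value of both. Without that array the differences were 1.40 for FBtr0082093 and 1.17 for FBtr0082504. None of these 4 passed.

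In males the regimes overlapped in nearly all of the 228. All monogamy males lay below all polygamy males in 3 of them, against 3.64% of all transcripts and 2.7% of the 9296, and above in 1, against 4.11% and 4.38%. The median difference was -0.97 over the 228 and 0.02 over all transcripts, and the median over the 228 moved with most arrays. It was -0.16 without monogamy male 1, -0.52 without polygamy male 1 and -0.63 without polygamy male 3, and -1.91 without monogamy male 3 and -1.77 without polygamy male 2. None of the 228 passed (0 of 228, 0.0% of all transcripts, limma), and 10 were at an unadjusted p under 0.05, against 1.32% of all transcripts. That number was 1 without monogamy male 1, against 0.619%, and 101 without monogamy male 3, against 7.15%, and none passed the adjusted threshold in either. These transcripts were chosen for their spread over the same arrays, and nothing is read from the shares in males. A test of whether the regime difference itself differed by sex passed for none of the 228 (0 of 228, 0.0% of all transcripts, limma, smallest adjusted p = 0.862), and 1 was at an unadjusted p under 0.05, against 3.56%. This test too uses the male arrays that chose the 228, and the choice for a large male spread makes their error large. It therefore cannot tell whether the regime difference is alike in the sexes, and nothing is read from its counts. The median of the difference of differences, females minus males, was -1.13, and it was -0.29 without monogamy male 3, -0.38 without polygamy male 2, -0.68 without monogamy female 1 and -1.93 without monogamy male 1.

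The 23 transcripts outside the main set were described singly after their values had been seen. In several of them a population stood apart in both sexes. FBtr0071865, otherwise among the brightest of the 228, stood at 9.72 in monogamy male 2 and at 12.86 or more in the other 5 males, and at 10.23 in monogamy female 2 and at 12.95 or more in the other 5 females. FBtr0086294 was lowest in the same population, with 8.68 in monogamy male 2 and 10.52 to 12.28 in the other males, and 8.82 in monogamy female 2 and 11.18 to 12.74 in the other females. Both had an r between the sexes of 0.96 or more over the 6 populations.

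Polygamy 3 and polygamy 1 stood out in others. FBtr0082093 stood at 10.72, 10.39 and 10.12 in monogamy males and at 7.43, 9.41 and 3.19 in polygamy males, and its female values given above lay in nearly the same places (r = 0.99). FBtr0273227 was highest in polygamy 1, at 11.76 in males and 11.99 in females, and lowest in polygamy 3, at 7.41 and 8.37, with the monogamy males at 9.03 to 10.23 and the monogamy females at 9.18 to 10.02. FBtr0080291 was lowest in polygamy 3 in both sexes, at 9.01 in males and 10.13 in females, against 11.03 to 13.01 in the other males and 10.97 to 12.57 in the other females. FBtr0077975 was low in polygamy male 3 (5.59, against 8.05 to 9.51 in the other males), while the female of that population was lowest by a smaller margin (7.82, against 8.25 to 9.41).

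**Figure D5:**
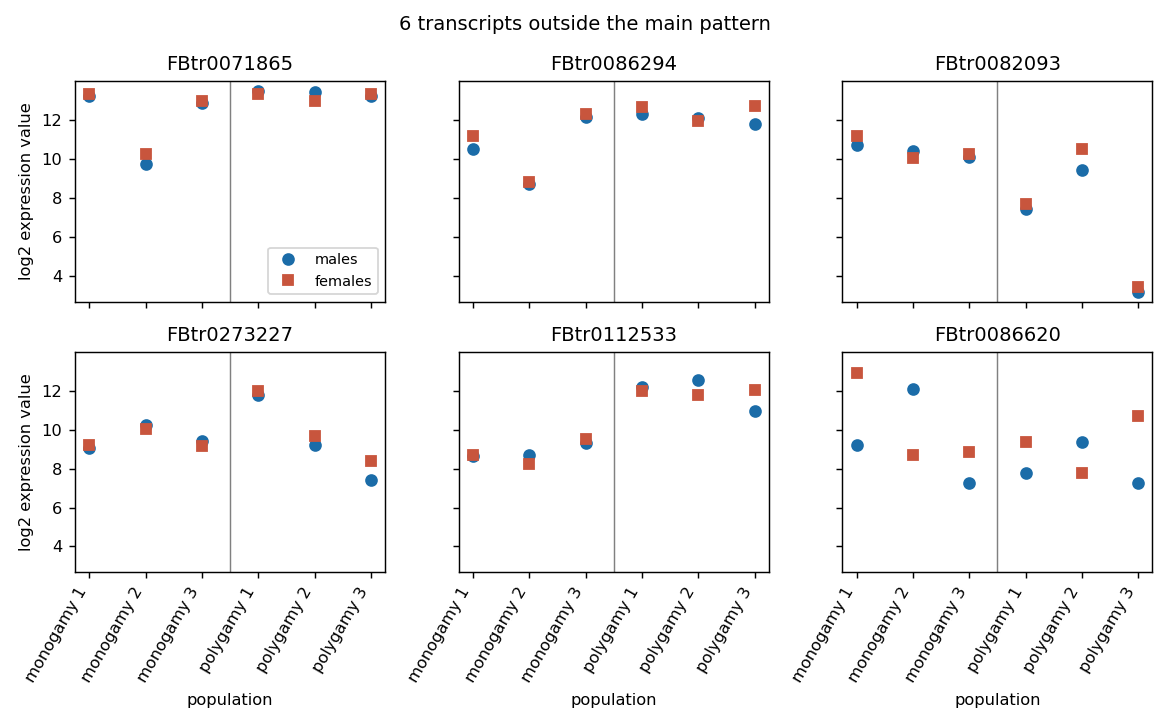
Log2 values of 6 transcripts outside the main set in each population, males as blue circles and females as red squares, monogamy left of the grey line and polygamy right of it; each point is 1 array. In FBtr0071865 and FBtr0086294 monogamy 2 is low in both sexes, in FBtr0082093 polygamy 3 is, FBtr0273227 is highest in polygamy 1 in both sexes, FBtr0112533 is lower in every monogamy array than in every polygamy array, and in FBtr0086620 males and females have their highest value in different populations.

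A further set of 4 ran apart between the sexes. FBtr0086620, FBtr0087386, FBtr0087653 and FBtr0086621 were highest in monogamy male 2 among males and in monogamy female 1 among females. FBtr0086620 stood at 9.19, 12.09 and 7.24 in monogamy males and at 7.78, 9.38 and 7.24 in polygamy males. In females it stood at 12.89, 8.69 and 8.84 under monogamy and at 9.35, 7.76 and 10.70 under polygamy, so that the female of the population with the highest male was among the low ones. The r between the sexes of the 4 lay between -0.18 and 0.13. Identifiers FBtr0086620 and FBtr0086621 are adjacent, and whether such transcripts share a gene or probes is not given in the sources used here.

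Some transcripts ran against the main set. In males 14 of the 228 had an r of -0.5 or below with its mean, and FBtr0082504 was the extreme case. It stood at 11.80, 9.86 and 7.50 in monogamy males and at 5.65, 11.52 and 5.69 in polygamy males, so that monogamy 1, monogamy 2 and polygamy 2, the arrays in which the main set was low, were its 3 highest. FBtr0081153 stood at 10.46, 10.40 and 8.82 in monogamy males and at 6.01, 10.05 and 6.51 in polygamy males. Its females stood at 11.00, 9.96 and 8.93 under monogamy and at 7.65, 8.43 and 9.07 under polygamy, again highest in monogamy 1. FBtr0087815 was highest in monogamy 1 in both sexes, at 11.09 in males and 11.16 in females.

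Of the 5 transcripts with the lowest r between the sexes, 4 belonged to the main set. FBtr0100145 had the lowest (r = -0.36). Its males stood at 10.72, 12.18 and 12.67 under monogamy and at 12.63, 9.52 and 12.54 under polygamy, and its females at 10.62, 11.47 and 11.54 under monogamy and at 11.82, 13.21 and 12.16 under polygamy. Polygamy 2 thus held its lowest male and its highest female value. FBtr0089744 (r = -0.33) and FBtr0076168 (r = -0.23) had their lowest female value in polygamy 3, the array that stood apart, as did FBtr0087362 (r = -0.17). At the upper end FBtr0110885, which also belongs to the main set, had an r of 0.96, with its lowest value in monogamy 1 in males (5.85) and in females (5.56) and its highest in polygamy 1 (10.95 in males and 10.51 in females).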

How the data were processed

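The authors deposited 1 log2 value for each transcript on each array; RMA is the tool that the submitters' processing notes name. Its version, the annotation release and which arrays were normalized as 1 set are not given here. Arrays have no read depth, and their number limits the precision. All 12 columns were matched to a sample. The 228 transcripts and the rules for naming them were chosen with earlier results of these data known; the 23 outside the main set were named in addition. A transcript that met the limits is not reported here. No filter or further normalization was applied. Regimes were compared with limma 3.58.1 in R 4.3.3 (lmFit, eBayes) in 1 fit of 4 groups over all transcripts, Benjamini-Hochberg adjusted, tested beforehand on simulated data. Other values are descriptions computed in Python 3.11.15. Of 12 lists of marker and pathway genes, 0 had a gene paired with a transcript. The subject label pairs the male and the female array of a population. Their deviations from the group means correlated over all transcripts at 0.53, -0.07 and 0.40 in monogamy 1 to 3 and at 0.09, 0.07 and -0.18 in polygamy 1 to 3. Alternatives were quantile normalization, a population block, a filter on low means, another prior, 1 sex alone, centring by regime, other limits on the male SD, a scaled median absolute deviation, and leaving out each array.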

Additional observations from a re-analysis of the deposited data

Results flagged for a closer look

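Dixon's test was used to mark arrays far from the other 5 of their sex. It was run in females for 47 named transcripts and the mean of the main set, and in both sexes for 2 properties of whole arrays. The male values of the transcripts were not tested, since they had chosen the transcripts. Of 52 sets of 6 values 7 held such an array, and chance alone marks about 1 set in 20. Some of the 47 had been named for their female spread.

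Among females, monogamy female 1 stood apart in FBtr0076855 (6.84) and FBtr0087653 (13.24), monogamy female 2 in FBtr0071865 (10.23) and polygamy female 3 in FBtr0077183 (8.25). As a description, the male of the same population was the lowest male in FBtr0076855, at 4.35, and in FBtr0071865, at 9.72. FBtr0076855 had been named for its male values and FBtr0071865 for its high r between the sexes, so that nothing is read from this. Of the properties of whole arrays, these were the mean correlation of monogamy male 1 with the other males (0.925), the mean correlation of polygamy female 3 with the other females (0.733) and its lower quartile (7.9994). The mean of the main set marked no female array.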

How the results depend on the processing

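The number of variable transcripts was 228, and 173 to 243 under both quantile normalizations, centring by regime and the scaled median absolute deviation. It was 123 at a male SD of at least 1.5, 521 at 1.0, and 110 (without monogamy male 1) to 309 with 1 array left out. The share with a female SD of at least 1.3, 63.2%, was 56.1% after quantile normalization over all arrays, 3.95% with values centred by regime, 77.2% and 39.3% with the limit on the male SD at 1.5 and 1.0, and 27.2% to 74.6% with 1 array left out. Pairs with an absolute r of at least 0.8 made up 81.9% in males, 87.1% after centring, 86.8% at a male SD of 1.5, and 78.7% to 86.7% with 1 array left out. In females the share was 66.9%, with 35.6% after centring, 81.2% and 54.1% at limits of 1.5 and 1.0, and 55.9% to 84.4% with 1 array left out. Transcripts with a male-female r of at least 0.8 made up 8.77%, with 22.4% after centring and 3.51% to 53.9% with 1 population left out. Regime in females had 1 call, with 0 after quantile normalization within each sex or over all arrays and 0 with females alone, and 0 to 10 with 1 array left out. The 10 were without polygamy female 2, where 12.5% of all transcripts passed, a larger share than among the 228. With the population as a random replicate block it was 1, and the block changed no call among the 228. The block used 1 correlation of 0.0787 for all transcripts, so that it differed little from the fit without a block. For regime in males and the interaction the number was 0 in each setting that was run (limma), with 10 and 1 at an unadjusted p under 0.05, and 1 to 101 and 0 to 20 with 1 array left out. The counts without polygamy female 3 of lowest and highest arrays, of regimes that do not overlap and of centred values were added after seeing the data. Of the named regime differences, 1 turned its sign: that of FBtr0082625 in males was 0.48, and -0.49 without monogamy male 1. The causes of these changes were not tested. The number of arrays, 3 per group, limits all of these values.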

Other observations

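Among the 228, 45 had an identifier number within 2 of another member's, and 3 pairs differed by at most 0.25 in every array: FBtr0084178 and FBtr0100514, FBtr0070081 and FBtr0070087, and FBtr0083333 and FBtr0083334. The number of separate genes behind the 228 is therefore not known from these data. The transcripts outside the 228 that followed the main set in males with an r of at least 0.9 had a median r of 0.76 with its mean in females, and those that ran against it in males, at -0.9 or below, had a median of -0.73 in females. Over all transcripts of 1 population the deviations of males and females from their group means were compared, and over the 228 alone the correlations were 0.73, -0.13 and 0.70 in monogamy 1, 2 and 3 and 0.41, 0.31 and 0.11 in polygamy 1, 2 and 3.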
